A study of Mus musculus with 64 samples.

Results

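The 6 WNT ligand genes examined here, Wnt3, Wnt3a, Wnt8a, Wnt5a, Wnt5b and Wnt11, are ligands of the posterior end of the gastrulating mouse embryo, and they were 6 of 21938 protein-coding genes on the autosomes and sex chromosomes. They were taken as a named list. Each was represented by its locus, defined as the GENCODE gene body in mm10 with 30 kb on either side, and a peak belonged to a locus when its summit fell inside. The 6 loci held 4905 of the 12175735 deposited peaks and 958 of the 1094874 peaks left when each list was reduced to its 20000 strongest peaks. A peak list shows where a protein was bound near a gene, not which gene the bound region acts on, and no expression of the ligands was measured in these files.

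WNT ligands are secreted lipid-modified proteins that bind Frizzled receptors. In the canonical branch, with Lrp5 or Lrp6 as co-receptor, signalling stabilises β-catenin, which enters the nucleus and acts through the DNA-binding TCF/LEF proteins. Wnt3, Wnt3a and Wnt8a are mostly known as ligands of this branch in the primitive streak and caudal epiblast, whereas Wnt5a, Wnt5b and Wnt11 are mostly known for β-catenin-independent signalling in cell movement and axis elongation. SOX2, which regulates genes of pluripotent and neural cells, is also present at a lower level in the caudal epiblast.

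Chromatin immunoprecipitation followed by sequencing (ChIP-seq) had been carried out for LEF1, for TCF7L2 and TCF7L1, which the labels name TCF4 and TCF3, and for SOX2 and β-catenin, with 3 biological replicates for each of 4 conditions, which gives 20 groups and 60 peak lists. All cells were HM1 mouse embryonic stem cells (ESCs) or their derivatives, labelled as 72 h. The naive ESC groups were wild-type cells held undifferentiated in 2i medium, which contains CHIR99021, an inhibitor of GSK3 and so an activator of canonical signalling, and the MEK inhibitor PD0325901. CEpiLC (caudal epiblast-like cells) were wild-type cells differentiated with FGF and, at the end, CHIR99021 as well. SOX2-ON and SOX2-OFF were Sox2-/- cells carrying a doxycycline-inducible Sox2 transgene, a clonal line, taken through the CEpiLC differentiation with doxycycline (1 µg/ml) kept or withdrawn. The differentiation media also contained LGK974, a porcupine inhibitor that blocks WNT secretion, and CHIR99021 acts downstream of the ligands. SOX2 protein is lost gradually after withdrawal. Naive ESC and SOX2-ON are referred to as high SOX2, and CEpiLC and SOX2-OFF as low SOX2. Between naive ESC and CEpiLC, SOX2 level and culture condition changed together and cannot be told apart.

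The lists held 1628 to 991719 peaks. In 10 lists there were fewer than 20000, so the whole list was used, and 5 of these held under 5000: β-catenin SOX2-OFF replicate 2, LEF1 CEpiLC replicate 1, TCF7L1 CEpiLC replicate 1, TCF7L2 CEpiLC replicate 1 and TCF7L2 SOX2-OFF replicate 2. Absence of a peak in these 5 lists says little. LEF1 sites were poorly shared between replicates outside CEpiLC. In naive ESC 1.91 to 7.90% of a library's sites were found in another replicate, against a median of 32.9% over all 60 libraries. For LEF1 in SOX2-OFF the shares were 7.09, 7.14 and 8.01%, and in SOX2-ON 10.6, 13.3 and 10.8%. At the lineage genes, TCF7L1 peaks ranked higher in every naive ESC library than in any CEpiLC library at 4 of 5 naive pluripotency genes (Esrrb, Tfcp2l1, Klf2, Klf4 and Nanog), against 18.2% of all protein-coding genes, a count that the TCF7L1 CEpiLC list of 1628 peaks enters. LEF1 peaks ranked higher in every CEpiLC library at 4 of 6 caudal genes (T, Cdx1, Cdx2, Cdx4, Hoxb8 and Hoxb9), against 7.96% of all genes. At 2 of these 6 caudal genes naive ESC ranked higher in every library for TCF7L1, and likewise at 2 for β-catenin, against 16.3% of all genes for β-catenin. CEpiLC ranked higher in every library at 3 of the 6 for TCF7L1, against 2.81% of all genes, and at 3 for β-catenin, against 16.2%.

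The sequences of 10 bound sites, each within 100 bp of the site centre, are shown. They were read from the plus strand of GRCm38.p6 (mm10), 5′ to 3′, and stretches inside untranslated regions were left out. Capitals mark the TCF/LEF sequence CTTTGAA or CTTTGAT, the SOX sequence CATTGT or CTTTGT, the CDX sequence TTTATGG or TTTATTG, and the T-box sequence GGTGTG, on either strand. The Wnt11 and Wnt5a sites were chosen after their values were seen. The first 5 hold a TCF/LEF sequence, the next 3 hold a SOX sequence but no TCF/LEF sequence, and the last 2 hold none of these.
Wnt3a 46.7 kb downstream of the start, chr11:59243916-59244116: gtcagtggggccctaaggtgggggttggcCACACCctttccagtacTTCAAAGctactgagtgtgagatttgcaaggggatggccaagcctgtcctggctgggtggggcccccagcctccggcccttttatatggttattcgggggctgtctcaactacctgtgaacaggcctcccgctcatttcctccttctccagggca
Wnt11 promoter, chr7:98834972-98835111: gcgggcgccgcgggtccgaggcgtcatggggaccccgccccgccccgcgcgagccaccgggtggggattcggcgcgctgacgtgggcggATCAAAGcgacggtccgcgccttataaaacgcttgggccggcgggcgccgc
Wnt5b internal promoter, chr6:119449387-119449573: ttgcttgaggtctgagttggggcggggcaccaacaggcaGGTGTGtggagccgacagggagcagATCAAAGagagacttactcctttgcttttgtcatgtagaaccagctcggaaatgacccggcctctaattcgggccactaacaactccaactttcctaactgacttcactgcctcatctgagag
Wnt5b 58.7 kb downstream of the start, chr6:119485527-119485727: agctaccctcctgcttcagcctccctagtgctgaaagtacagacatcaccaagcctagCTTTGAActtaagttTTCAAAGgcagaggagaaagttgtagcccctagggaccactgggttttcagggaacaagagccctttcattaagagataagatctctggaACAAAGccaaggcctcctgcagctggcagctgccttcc
Wnt3 24.6 kb downstream of the start, chr11:103798611-103798811: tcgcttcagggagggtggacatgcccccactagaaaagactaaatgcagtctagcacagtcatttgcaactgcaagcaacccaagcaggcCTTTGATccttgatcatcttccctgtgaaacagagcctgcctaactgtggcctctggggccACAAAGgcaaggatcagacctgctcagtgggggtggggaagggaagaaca
Wnt3 2984 bp upstream of the start, chr11:103771066-103771266: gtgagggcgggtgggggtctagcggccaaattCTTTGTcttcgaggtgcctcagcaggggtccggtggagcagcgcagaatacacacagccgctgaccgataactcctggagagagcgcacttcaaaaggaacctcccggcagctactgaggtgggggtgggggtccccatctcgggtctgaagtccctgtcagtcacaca
Wnt5b 125.2 kb downstream of the start, chr6:119419040-119419240: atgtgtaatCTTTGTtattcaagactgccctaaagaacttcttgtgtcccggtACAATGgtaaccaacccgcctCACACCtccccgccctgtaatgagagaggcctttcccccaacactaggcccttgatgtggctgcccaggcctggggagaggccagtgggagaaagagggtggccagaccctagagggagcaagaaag
Wnt5a 8.3 kb downstream of the start, chr14:28512912-28513112: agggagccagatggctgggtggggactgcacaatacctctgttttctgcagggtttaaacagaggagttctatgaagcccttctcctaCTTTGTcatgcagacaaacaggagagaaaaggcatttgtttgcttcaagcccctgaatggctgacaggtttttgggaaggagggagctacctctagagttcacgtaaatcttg
Wnt3 35.2 kb downstream of the start, chr11:103809292-103809492: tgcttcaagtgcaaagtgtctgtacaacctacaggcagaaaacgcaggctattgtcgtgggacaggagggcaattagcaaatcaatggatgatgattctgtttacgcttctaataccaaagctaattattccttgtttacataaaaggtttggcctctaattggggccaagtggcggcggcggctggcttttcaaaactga
Wnt3 66970 bp downstream of the start, chr11:103841020-103841220: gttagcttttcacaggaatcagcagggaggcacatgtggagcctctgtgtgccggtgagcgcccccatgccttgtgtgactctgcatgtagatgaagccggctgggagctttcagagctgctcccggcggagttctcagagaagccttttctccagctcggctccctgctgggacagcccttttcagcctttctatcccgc

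The loci lie on 5 chromosomes of mm10. Wnt3 (ENSMUSG00000000125.5) is at chr11:103774150-103817957 on the plus strand, with Wnt9b and Nsf also in its window, and Wnt3a (ENSMUSG00000009900.7) at chr11:59248033-59290752 on the minus strand, with Arf1 and Wnt9a. Wnt8a (ENSMUSG00000012282.2) is at chr18:34542313-34548273 on the plus strand, with Nme5, and Wnt5a (ENSMUSG00000021994.15) at chr14:28504750-28527448 on the plus strand, with Erc2. Wnt5b (ENSMUSG00000030170.14) is at chr6:119432531-119544347 on the minus strand, with Adipor2, Fbxl14 and Erc1, and Wnt11 (ENSMUSG00000015957.12) at chr7:98835112-98855195 on the plus strand, with Uvrag. Distances are counted from the annotated start of each gene along its direction of transcription.

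The loci differed in how often they were occupied. Wnt5b had a peak among the 20000 strongest in 60 of 60 libraries, Wnt3 in 57, Wnt8a in 55, Wnt3a in 41, Wnt11 in 37 and Wnt5a in 36, against a median of 32 for all protein-coding genes. The windows are not of equal length, and that of Wnt5b spans 171817 bp against a median of 77425 bp, while that of Wnt8a is shorter than the median, at 65961 bp. In CEpiLC, β-catenin was found in 3 of 3 libraries at all 6 loci, compared with 32.9% of all protein-coding genes. In naive ESC it was found in 3 of 3 libraries at 3 loci, compared with 35.5% of all genes, and in none at Wnt3a and Wnt5a. In every deposited peak list of naive ESC β-catenin, however, there was some peak at all 6 loci, and the same held for 74.1% of all genes. In CEpiLC, whose β-catenin lists were shorter, that share was 33.1% of all genes. For a locus as a whole the difference thus concerns strength, whereas single sites could lack a deposited peak in naive ESC.

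**Figure D1:**
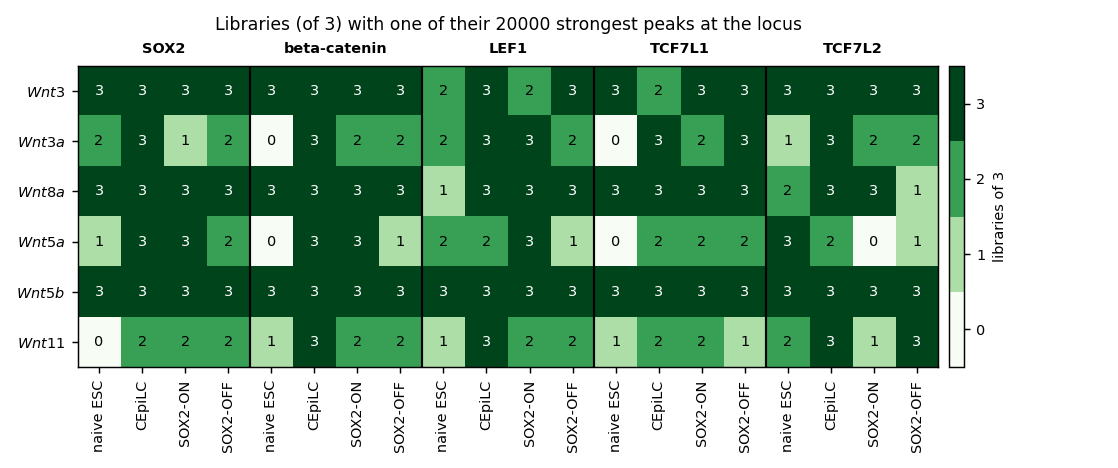
Number of libraries, of 3, with a peak among the 20000 strongest of their list at each of the 6 loci (rows), for 5 targets and 4 conditions (columns). Wnt5b is filled with 3 throughout, and β-catenin in CEpiLC is at 3 for every locus.

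Strength was compared by rank, where rank 1 is the peak with the highest deposited fold enrichment of its list, so a small rank is a strong peak. A locus without a peak among the 20000 strongest was given rank 20001. Fold enrichment itself depends on the depth of each library, which the peak lists do not give.

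Wnt3a, a ligand that maintains caudal progenitors and mesoderm of the trunk and tail, showed the largest difference between naive ESC and CEpiLC among the 6 loci for β-catenin and TCF7L1. The strongest β-catenin peak at the locus ranked 661, 304 and 576 in CEpiLC replicates 1 to 3, with folds of 25.3, 40.6 and 24.1. In naive ESC the strongest peak ranked 40513, 48184 and 31360, with folds of 3.95, 5.43 and 5.07. The groups did not overlap, and on the log10 scale with absent peaks at 20001 the difference was 1.61. LEF1 ranked 557, 299 and 363 in CEpiLC and 7518, 79502 and 6042 in naive ESC. TCF7L1 ranked 669, 182 and 201 in CEpiLC, although the first of these lists holds only 1628 peaks, and in naive ESC it ranked 44218 and 21008 in replicates 1 and 3 and had no peak in replicate 2. TCF7L2 ranked 1900, 1149 and 1735 in CEpiLC and 23714, 25351 and 17990 in naive ESC. CEpiLC libraries were therefore ahead of naive ESC libraries for all 4 WNT mediators. For SOX2 the groups overlapped, at 4395, 1130 and 1823 in CEpiLC and 4098, 20024 and 18856 in naive ESC.

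The strongest CEpiLC peak of each of the 5 targets at Wnt3a lay at 1 site, centred on chr11:59244016 between genes, 46736 bp downstream of the Wnt3a start and 4017 bp past the 3′ end of the gene. It was the only site of the locus with a peak in 3 of 3 libraries of any group. All 5 targets had a peak there in 3 of 3 CEpiLC libraries and in 0 of 3 naive ESC libraries among the 20000 strongest. Weaker naive ESC peaks lay there for TCF7L1 in replicate 3 (fold 9.01), and for SOX2 (4.22) and β-catenin (3.78) in replicate 1. In SOX2-OFF, β-catenin had folds of 16.6 and 23.6 in replicates 1 and 3 and no peak in replicate 2, whose list is short. In SOX2-ON a single β-catenin library had a peak there, with a fold of 4.75. SOX2 itself had folds of 8.46, 16.0 and 14.8 in CEpiLC, 5.26 and 20.8 in 2 of 3 SOX2-OFF libraries, and no peak in SOX2-ON. TCF7L1 was present in 3 of 3 SOX2-OFF libraries, with folds of 8.21, 7.42 and 15.8. The sequence of the site holds 1 TCF/LEF and 1 T-box sequence and no SOX or CDX sequence.

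Wnt8a, a ligand of the posterior epiblast and early streak, was occupied in all conditions, and its strongest peaks were among the strongest of whole libraries. β-catenin ranked 220, 185 and 313 in CEpiLC and 2278, 2591 and 3800 in naive ESC, and the groups did not overlap. SOX2 ranked 300, 275 and 274 in CEpiLC, 3056, 4098 and 3635 in naive ESC, 1387, 2484 and 811 in SOX2-ON, and 451, 3217 and 456 in SOX2-OFF. The SOX2 ranks of the transgenic cells overlapped between doxycycline kept and withdrawn, whereas those of the wild-type cells did not. LEF1 ranked 205, 277 and 498 in CEpiLC and 91915, 5118 and 104270 in naive ESC.

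Which site carried these peaks differed between conditions. At a site 9534 bp downstream of the start and 3574 bp past the end of the gene, SOX2 and β-catenin each had a peak among the 20000 strongest in 3 of 3 libraries of all 4 conditions. At a site 19183 bp downstream, SOX2 had folds of 26.1, 30.5 and 35.7 in CEpiLC and 14.9, 6.98 and 30.4 in SOX2-OFF. There were SOX2 folds of 7.30 and 6.94 in 2 of 3 naive ESC libraries and of 4.45 and 2.57 in 2 of 3 SOX2-ON libraries, neither of the latter among the 20000 strongest. β-catenin was present there in 3 of 3 libraries of every condition, with folds of 38.2, 51.7 and 35.1 in CEpiLC and 7.11, 5.59 and 16.9 in SOX2-ON. LEF1 followed with folds of 20.2, 26.7 and 22.0 in CEpiLC and a single SOX2-ON peak with a fold of 6.19. At the promoter, 285 bp upstream of the start, SOX2 was among the 20000 strongest in 3 of 3 libraries of naive ESC, CEpiLC and SOX2-OFF and in 0 of 3 of SOX2-ON, where a single weaker peak had a fold of 7.20. A site 6975 bp downstream held β-catenin in 3 of 3 CEpiLC and 3 of 3 SOX2-OFF libraries and in 0 of 3 of each high-SOX2 condition, again among the 20000 strongest. A site 13135 bp downstream had the opposite order for TCF7L1, with folds of 18.7, 16.7 and 31.8 in naive ESC and no peak in CEpiLC.

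Wnt3, the ligand required for primitive streak formation, had 8 reproducible sites, meaning sites found in 3 of 3 libraries of some group, and the smallest difference in β-catenin rank between naive ESC and CEpiLC of the canonical ligands. β-catenin ranked 1110, 1274 and 887 in CEpiLC and 2900, 5763 and 2980 in naive ESC. SOX2 ranked 484, 539 and 1388 in CEpiLC and 797, 2019 and 2485 in naive ESC, and these overlapped. The most frequent site, 2984 bp upstream of the start and present in 38 of 60 libraries, had β-catenin in 3 of 3 libraries of every condition. SOX2 at this site had folds of 10.7, 12.6 and 22.5 in SOX2-OFF and was in 0 of 3 SOX2-ON libraries among the 20000 strongest, with weaker peaks of 6.00 and 6.99 in replicates 1 and 3. A site 66970 bp downstream, in an intron of the neighbouring gene Nsf, had the reverse order, with SOX2 folds of 15.6, 10.4 and 38.1 in SOX2-ON and a single deposited SOX2-OFF peak with a fold of 5.05, although SOX2 was present in CEpiLC too, with folds of 6.51, 6.14 and 8.45. TCF7L1 at this site was among the 20000 strongest in 3 of 3 libraries of naive ESC and SOX2-ON and in 0 of 3 of CEpiLC and SOX2-OFF. At the intronic site 35.2 kb downstream, SOX2 was in both wild-type conditions, with folds of 25.8, 18.5 and 15.8 in naive ESC and 21.9, 22.4 and 17.0 in CEpiLC. At the intronic site 24.6 kb downstream, TCF7L1 had folds of 26.9, 12.9 and 23.8 in naive ESC and was in 0 of 3 CEpiLC libraries among the 20000 strongest. The strongest TCF7L2 peak of the Wnt3 locus in CEpiLC, with folds of 9.73, 22.0 and 10.9, lay 21 bp from the start of Wnt9b, another WNT ligand gene in the window.

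**Figure D2:**
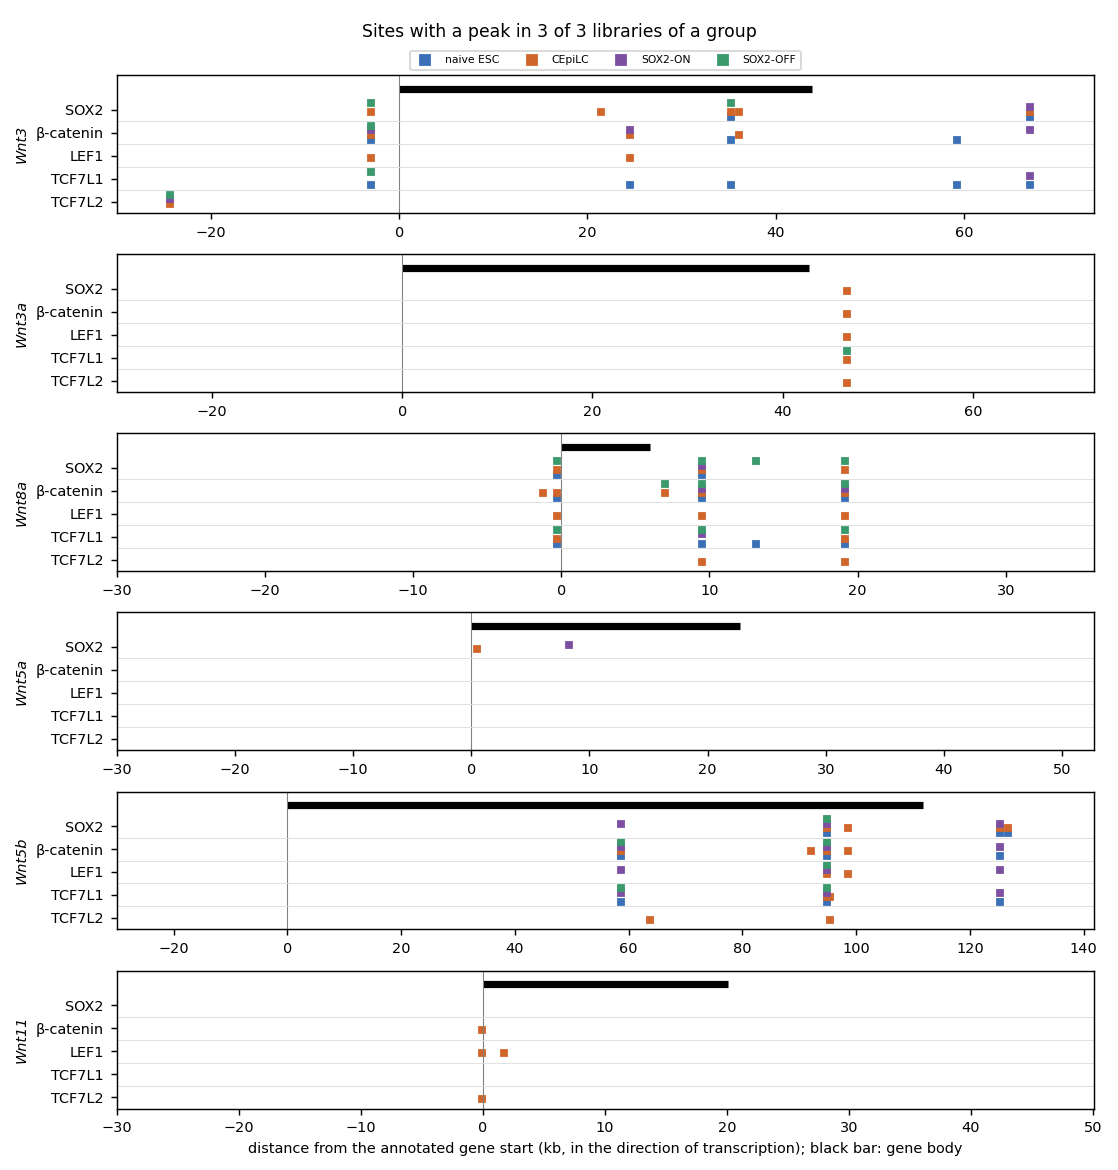
Reproducible sites, found in 3 of 3 libraries of a group (coloured squares), by distance in kb from the annotated start of each gene along its direction of transcription, with 1 row per target; the black bar is the gene body. At Wnt3a all squares stand at a single position past the gene's end, while Wnt8a and Wnt5b have positions filled in all 4 conditions.

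Among the ligands best known for β-catenin-independent signalling, Wnt5a, which is needed for outgrowth of the body axis, was the only locus apart from Wnt5b whose SOX2 ranks did not overlap in either cell line and ran in opposite orders. SOX2 ranked 3267, 4055 and 4873 in CEpiLC and 15450, 22026 and 64566 in naive ESC. It ranked 852, 1323 and 1190 in SOX2-ON and 26924, 8821 and 9248 in SOX2-OFF. By rank, low-SOX2 libraries were thus ahead in wild-type cells and high-SOX2 libraries in transgenic cells. By fold the wild-type groups overlapped, at 10.5 in naive ESC replicate 1 against 9.67, 9.31 and 9.31 in CEpiLC. The strongest peaks were not at the same place. In CEpiLC replicates 1 and 3 they lay between genes 24666 bp downstream of the start and 1968 bp past the 3′ end, with folds of 9.67 and 9.31, and in replicate 2 at the promoter. At the downstream site SOX2-ON had weaker SOX2 peaks, with folds of 5.78 and 6.59 in 2 of 3 libraries. In SOX2-ON the strongest peaks lay in an intron 8262 bp downstream of the start, with folds of 20.66, 18.03 and 22.35, and the naive ESC, CEpiLC and SOX2-OFF lists held no SOX2 peak there. LEF1 had a deposited peak at this intronic site in 3 of 3 SOX2-ON libraries, with folds of 6.25, 6.91 and 9.23, and TCF7L1 in 2 of 3, with folds of 9.25 and 17.3. In no library of the other 3 conditions was there a β-catenin, LEF1 or TCF7L1 peak at it, and TCF7L2 had 2 weak peaks there, with folds of 3.81 in naive ESC and 3.14 in CEpiLC. SOX2 had CEpiLC folds of 5.38, 9.31 and 5.60 at the promoter, 521 bp downstream of the start, while the lists held none in naive ESC and SOX2-OFF and 1 in SOX2-ON, with a fold of 3.66. β-catenin at Wnt5a ranked 4737, 3557 and 6079 in CEpiLC and 24252, 48057 and 25758 in naive ESC.

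Wnt5b, a close relative of Wnt5a that shares its β-catenin-independent activity, was the locus occupied in the most libraries. SOX2 ranked 241, 143 and 139 in CEpiLC and 1522, 2252 and 600 in naive ESC, and it ranked 102, 70 and 195 in SOX2-ON and 246, 197 and 353 in SOX2-OFF. As at Wnt5a, the groups did not overlap in either cell line and the order turned. The strongest SOX2 peaks of CEpiLC and SOX2-OFF lay 94874 bp downstream of the annotated gene start, 87 bp from the start of a shorter Wnt5b transcript, whereas those of naive ESC and SOX2-ON lay 125207 bp downstream and 13391 bp past the end of the gene, 1436 bp from the start of Adipor2. At the internal promoter SOX2 had folds of 27.9, 39.3 and 46.7 in CEpiLC, 19.6, 35.4 and 33.8 in SOX2-OFF, 18.01, 11.2 and 12.03 in naive ESC, and 9.50, 8.48 and 9.63 in SOX2-ON. At the downstream site it had folds of 36.9, 41.3 and 38.4 in SOX2-ON, 21.1, 17.5 and 27.2 in naive ESC, and 6.79, 8.20 and 9.44 in CEpiLC, with a single SOX2-OFF peak at 8.19. High-SOX2 and low-SOX2 libraries thus did not overlap at either site, and the order was opposite between the sites. Among the 20000 strongest peaks, LEF1 and TCF7L1 were each found at the downstream site in 3 of 3 SOX2-ON libraries and 0 of 3 SOX2-OFF libraries. These values were selected as the strongest of the locus, so they are given as a description.

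β-catenin was not separated between naive ESC and CEpiLC at the internal Wnt5b promoter, where its folds were 31.5, 23.5 and 30.8 in naive ESC and 40.5, 42.3 and 22.0 in CEpiLC and the groups overlapped. In contrast, at an intronic site 58720 bp downstream, β-catenin had folds of 51.0, 29.2 and 35.5 in naive ESC and 6.50, 5.90 and 5.50 in CEpiLC. TCF7L1 had folds of 67.1, 53.8 and 107 there in naive ESC and a single CEpiLC peak at 7.20. This site carries 2 TCF/LEF sequences and 1 SOX sequence. At a site 95457 bp downstream, TCF7L2 had folds of 8.55, 23.1 and 15.9 in CEpiLC, and none of the SOX2 or β-catenin lists held a peak at that site. A site 98588 bp downstream had the reverse order to that at 58720 bp, with β-catenin folds of 14.4, 18.2 and 9.40 in CEpiLC, 12.6 and 18.5 in 2 of 3 SOX2-OFF libraries, and no peak in naive ESC. SOX2 and LEF1 were also in 3 of 3 CEpiLC and 0 of 3 naive ESC libraries there among the 20000 strongest.

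Wnt11, a ligand of cell movement in gastrulation, had its most frequent site at the promoter, 40 bp upstream of the start, with a peak among the 20000 strongest in 17 of 60 libraries. β-catenin had folds of 13.2, 7.63 and 8.97 in CEpiLC, LEF1 8.47, 8.09 and 6.26, and TCF7L2 6.78, 16.6 and 9.28, and each of the 3 was in 0 of 3 naive ESC libraries among the 20000 strongest. None of the 12 SOX2 lists held a peak at this site. The promoter sequence holds 1 TCF/LEF sequence and no SOX sequence. At the level of the locus, β-catenin ranked 2048, 4061 and 2409 in CEpiLC and 35688, 32060 and 16363 in naive ESC.

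**Figure D3:**
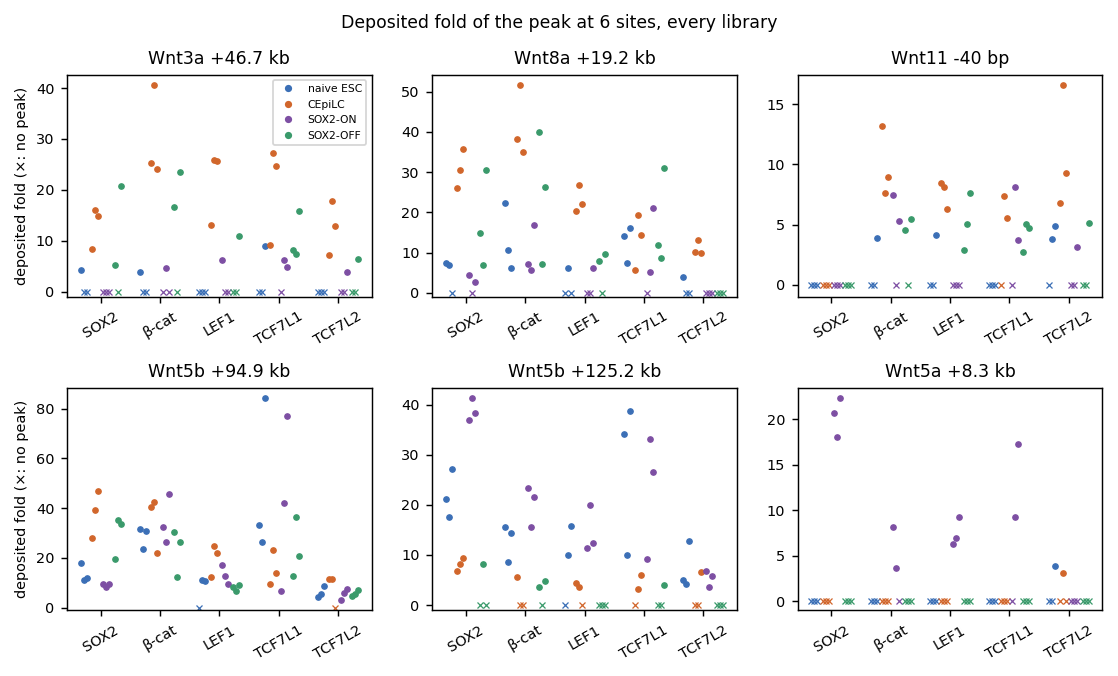
Deposited fold enrichment (linear axis) of the peak at 6 sites in every library, by target and condition, with crosses at 0 where the list held no peak. All 5 targets have a peak in each CEpiLC library at the Wnt3a site, SOX2-ON alone has SOX2 peaks at the Wnt5a site, and SOX2 turns its order between the 2 Wnt5b sites.

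Over the 6 loci and 5 targets, giving 30 comparisons of CEpiLC with naive ESC, all 3 CEpiLC ranks were ahead of all 3 naive ESC ranks in 19, and the reverse held in 0. The reverse held at 16.3% of all protein-coding genes for β-catenin and 18.2% for TCF7L1. For SOX2, LEF1 and TCF7L2 it held at 2520, 1314 and 1372 of 21938 genes. With 3 libraries against 3, the smallest p of an exact two-sided permutation test is 0.1, which each of the 19 reached. For β-catenin CEpiLC was ahead at 5 of 6 loci, against 16.2% of all protein-coding genes, and for LEF1 at 5 of 6, against 7.96%. For TCF7L2 it was ahead at 4, against 7.7% of all genes, for SOX2 at 3, against 15.6%, and for TCF7L1 at 2, against 2.81%. Without the 5 shortest lists and naive ESC LEF1 replicate 1, a choice made after seeing the data, the rule is looser for 3 targets, since 2 CEpiLC libraries remain. The counts were then 6 for LEF1, against 19.3% of all genes, 5 for TCF7L1, against 18.9%, and 4 for TCF7L2, against 14.9%, while those of β-catenin and SOX2 rest on the same libraries as before. For TCF7L1, the CEpiLC list of 1628 peaks had no peak at Wnt3, Wnt5a or Wnt11. By fold in place of rank, CEpiLC was ahead at 2 loci for LEF1, against 4.34% of all genes, and at 1 for TCF7L1, against 0.456%. It was then ahead at 2 for SOX2, against 6.61%, at 4 for β-catenin, against 7.7%, and at 4 for TCF7L2, against 4.45%.

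**Figure D4:**
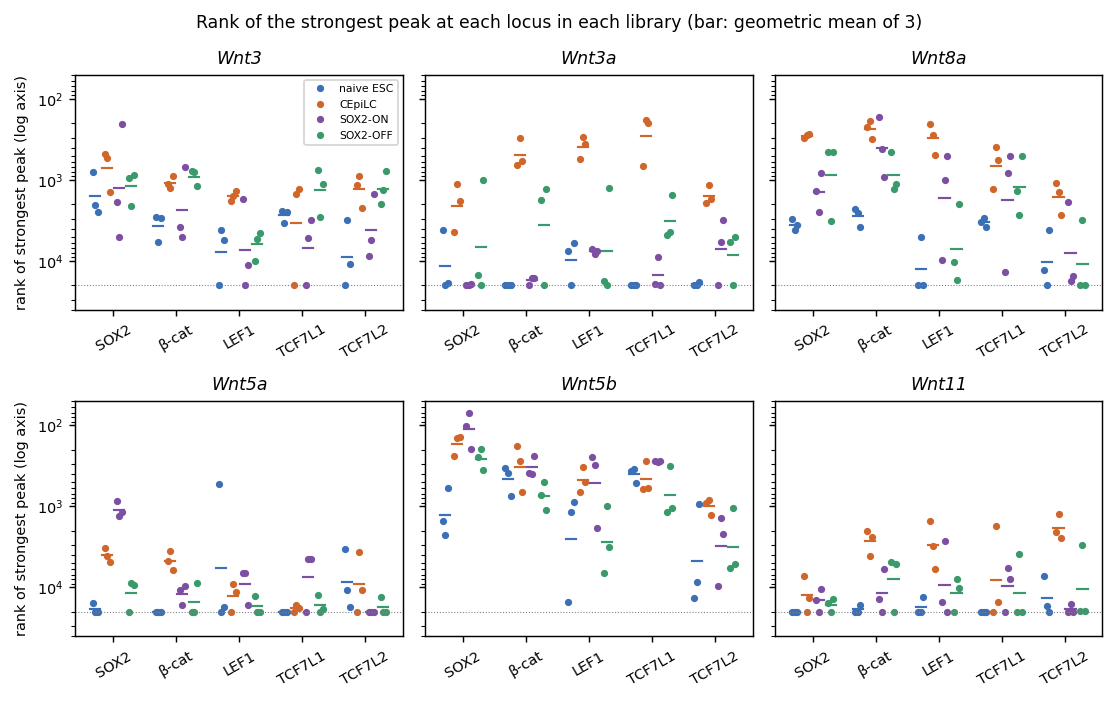
Rank of the strongest peak at each locus in each of 60 libraries (points, log axis with strong peaks at the top) and the geometric mean of each group of 3 (bars); the dotted line is the rank of 20001 given where no peak was among the 20000 strongest. CEpiLC points stand above naive ESC points without overlap in 19 of 30 pairs of groups.

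In the transgenic cells, low-SOX2 libraries were ahead in 2 of 30 comparisons. SOX2-OFF was ahead of SOX2-ON for TCF7L1 at Wnt3 and Wnt3a, 2 of 6 loci against 7.31% of all genes. That count was 0 with all TCF7L1 lists shortened to the same length, and 1 by fold, against 4.74% of all genes. SOX2-OFF was ahead at 0 of 6 loci for SOX2 (11.2% of all genes), β-catenin (4.83%), LEF1 (4.64%) and TCF7L2 (3.43%). Without the short list of replicate 2, β-catenin was ahead in SOX2-OFF at 2 loci, under a looser rule of 2 libraries against 3 that 13.5% of all genes met. SOX2-ON was ahead for SOX2 at Wnt5a and Wnt5b, 2 of 6 against 8.52% of all genes, and at Wnt5b alone for β-catenin (8.85% of all genes) and TCF7L1 (4.57%). Ranked by −log10 p-value, SOX2-ON was ahead at 1 locus for SOX2, 1 for LEF1 and 0 for β-catenin and TCF7L1. SOX2-OFF was then ahead at 1 for SOX2, 2 for TCF7L1, 1 for TCF7L2 and 0 for β-catenin and LEF1. The shares of all genes under that ranking were not computed. At Wnt3a TCF7L1 ranked 4709, 4405 and 1541 in SOX2-OFF and 19098, 8882 and 45048 in SOX2-ON. β-catenin at Wnt3a ranked 1767 and 1292 in SOX2-OFF replicates 1 and 3, with no peak in replicate 2, and 24571, 16146 and 16221 in SOX2-ON.

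Joining both cell lines, the mean log10 rank of high-SOX2 libraries was compared with that of low-SOX2 libraries by an exact two-sided permutation test with labels permuted within each cell line (400 assignments), and p-values were adjusted over all genes by the Benjamini-Hochberg method. No gene passed an adjusted p of 0.05 for any target, and the counts at an unadjusted p of at most 0.05 were 4671 genes for SOX2, 2967 for TCF7L1, 4595 for β-catenin, 1942 for TCF7L2 and 1948 for LEF1. The smallest p that can be reached is 0.005, which would pass only if 2194 or more genes shared it. Within the 6 loci, 8 of 30 comparisons had an unadjusted p of at most 0.05, and in all 8 the peak was stronger at low SOX2. Of these, only TCF7L1 at Wnt3a was separated between SOX2-ON and SOX2-OFF, and the ranks of the others overlapped there. Between naive ESC and CEpiLC the culture condition changed along with SOX2 level. The lowest p was that of TCF7L1 at Wnt3a, with a difference of 1.26 on the log10 scale (exact permutation p = 0.005, adjusted p = 0.162), and it was 1 of 6 loci, against 4.22% of all genes. For β-catenin there were 3 loci, against 9.06% of all genes: Wnt3a (1.15, exact p = 0.02, adjusted p = 0.15), Wnt3 (0.47, exact p = 0.02) and Wnt11 (0.51, exact p = 0.03). For TCF7L2 there were 2, against 4.09%, namely Wnt3 (0.67, exact p = 0.01), whose peak lay at Wnt9b, and Wnt11 (0.55, exact p = 0.025). For SOX2 there were 2, against 13.2%, namely Wnt8a (0.65, exact p = 0.03) and Wnt3a (0.61, exact p = 0.04). For LEF1 there were 0, against 5.37%, and Wnt3a came closest (0.70, exact p = 0.055). Where nothing passed the adjustment, no difference is called, and a p above the threshold does not show that the values were alike.

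Single sites were then compared. Neighbouring summits at most 200 bp apart were joined into sites, which gave 263 sites at the 6 loci, 27 of them with a peak in 3 of 3 libraries of some group. Of these 27, 13 reached 3 of 3 libraries for at least 3 targets (48.1%), against 22.9% of 26559 such sites in the genome. A site was called differential when it was among the 20000 strongest in 3 of 3 libraries of a condition and 0 of 3 of the other. CEpiLC-only sites numbered 5 of 19 for β-catenin (21.5% of all sites of the genome), 5 of 11 for TCF7L2 (15.0%), 2 of 14 for TCF7L1 (0.817%), 4 of 12 for LEF1 (42.1%) and 4 of 17 for SOX2 (18%), counted among sites with a peak in at least 3 of the 6 libraries. Naive-only sites numbered 1 of 19 for β-catenin, against 30.0% of all sites, and 4 of 14 for TCF7L1, against 71.5%, a share that the short TCF7L1 list in CEpiLC enters. For LEF1, leaving out naive ESC replicate 1 and the short CEpiLC list raised the differential sites from 4 to 11. With 2 libraries left in each condition, that rule is looser by construction, and the share of all sites meeting it was not computed.

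Between SOX2-ON and SOX2-OFF, SOX2 had 3 ON-only sites of 12, against 39.0% of all sites, and 3 OFF-only sites, against 5.93%. The ON-only sites were those of Wnt3 in the Nsf intron, the Wnt5a intron and the Wnt5b intron at 58720 bp. At this Wnt5b site, SOX2-OFF had weaker SOX2 peaks in 3 of 3 deposited lists, with folds of 4.30, 4.24 and 4.76. The OFF-only sites were that upstream of Wnt3, the Wnt8a promoter and the Wnt8a site at 19183 bp. β-catenin had 0 ON-only sites of 15, against 20.8%, and 1 OFF-only site, against 2.61%, at Wnt8a. The ON-only sites numbered 1 of 4 for LEF1 (26.6% of all sites), 2 of 17 for TCF7L1 (6.15%) and 0 of 4 for TCF7L2 (5.27%). Without the short SOX2-OFF list, the β-catenin count in both directions rose from 1 to 7, with 2 libraries against 3 a looser rule by construction. The share of all sites meeting that rule was not computed.

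The TCF/LEF sequence was present at 14 of the 27 reproducible sites (51.9%, 95% exact binomial interval 31.9 to 71.3%), compared with 31.5% of the 26559 reproducible sites of the genome and 4 of 54 windows placed 5000 bp to either side (7.41%). Over all 263 sites the share was 15.2%, against 11.7% of all 597563 sites. The SOX sequence was at 8 of the 27 (29.6%), compared with 48.9% of the reproducible sites of the genome and 40.7% of the flanking windows. The CDX sequence was at 1 of 27 (genome 5.71%) and the T-box sequence at 5 of 27 (genome 14.7%). The Wnt5b site at 98588 bp is the one that holds the CDX sequence, together with a T-box sequence. These are letter matches and not evidence of binding by a given factor, and the intervals cover counting error only.

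Other genes of the pathway were read in the same way. Of 13 other WNT ligand genes, 8 had β-catenin in 3 of 3 CEpiLC libraries and 3 in 3 of 3 naive ESC libraries, against 32.9% and 35.5% of all genes. CEpiLC was ahead for β-catenin at 6 of these 13 and naive ESC at 1, against 16.2% and 16.3% of all genes, and the same shares apply to the secretion and receptor genes. At Wnt9a, which shares its window with Wnt3a, β-catenin was in 3 of 3 CEpiLC and 0 of 3 naive ESC libraries. Wnt9b likewise lies in the window of Wnt3, so these windows are not separate from those of the members. Overlap among the windows of the 13 genes was not examined. For Porcn and Wls, which serve WNT acylation and secretion, CEpiLC was ahead for β-catenin at 1 and naive ESC at 1. Among 15 receptor genes (Fzd1 to Fzd10, Lrp5, Lrp6, Ror1, Ror2 and Ryk) CEpiLC was ahead for β-catenin at 2 and naive ESC at 0. Medians of the high-minus-low difference for β-catenin were 0.42 over the 6 members, 0.14 over the other ligands, 0.02 over the receptors and 0 over all genes.

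Across the 60 libraries, the log10 ranks of the 6 loci were only partly alike, with Pearson r from 0.02 for Wnt3a and Wnt5a to 0.56 for Wnt8a and Wnt5b. The genes on other chromosomes most like Wnt3a were Uros, Bccip and Mmp21 (r = 0.86 each), and most like Wnt8a were Gpr37l1 (r = 0.78), Nudt7 (r = 0.75) and Btn2a2 (r = 0.72). Wnt11 was most like Sap30l (r = 0.72), Wnt5a most like Akr1b8 (r = 0.75), Wnt5b most like Tox (r = 0.72) and Wnt3 most like Nacc1 (r = 0.66). The points share target, condition and list length, so these values are descriptions.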

How the data were processed

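ChIP-seq reads (single-end, 76 bp) had been processed by the authors with nf-core/chipseq, aligned to mm10 with BWA and called by MACS2 at its default q-value threshold in each library separately, without pooling replicates. The deposited narrowPeak values used were the fold enrichment at the summit (a ratio) and the −log10 p-value. The deposited −log10 q-value and the score derived from it were not used. Which input each library was called against, MACS2's version and read counts are not given in the sources used here, so depth is unknown. The 4 input libraries were not analysed here, and peaks on the mitochondrial chromosome were left out.

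Gene bodies came from GENCODE M21. The members and lists were chosen with earlier results of these data known. Peaks were ranked by fold, the 20000 strongest of each list kept, and ranks compared on the log10 scale by exact permutation over samples (Python 3.11.15, numpy and pandas), with Benjamini-Hochberg adjustment over 21938 genes. Sites joined summits at most 200 bp apart. Named sites were, per locus, the 4 found in most libraries and up to 3 differential sites with the highest median fold, and other sites named were chosen after their values were seen. The permutation test and the joining of sites were tested on simulated data. The correlation of same-numbered libraries was over 0.1 in all 3 pairs only for TCF7L1 in SOX2-ON and SOX2-OFF (r = 0.21, 0.19 and 0.13), from the data and not from the labels, and it was -0.0268 to 0.0785 elsewhere. The labels call samples biological replicates, and p-values measure the spread between these samples. Alternatives were all deposited peaks, ranking by −log10 p-value, lists of equal length, 10 kb flanks, other joining distances, fold in place of rank, a replicate block and leaving out each replicate number.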

Additional observations from a re-analysis of the deposited data

Results flagged for a closer look

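At Wnt5a, the SOX2 rank differed between conditions in opposite directions in the 2 cell lines. All 3 CEpiLC libraries were ahead of all 3 naive ESC libraries, by 0.66 on the log10 scale, and all 3 SOX2-ON libraries were ahead of all 3 SOX2-OFF libraries, a difference of -1.03. These 2 differences were 1.69 apart (exact permutation p = 0.005, the smallest it can give, adjusted p = 0.267 over all genes), which did not pass the adjustment. For this test, cell line labels were permuted within each SOX2 level. By fold in place of rank, the SOX2 values of naive ESC and CEpiLC overlapped at Wnt5a. Culture medium changed in the wild-type comparison only, so cell line and medium cannot be told apart here. The locus was flagged from these same values, so the p-value is a description.

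At Wnt5b, the SOX2 rank had the same crossing order, with 0.88 between naive ESC and CEpiLC and -0.36 between SOX2-ON and SOX2-OFF. These 2 differences were 1.24 apart (exact permutation p = 0.01 by the same test, adjusted p = 0.33), which did not pass the adjustment either. The same limits apply. At this locus the strongest SOX2 peak was at the internal Wnt5b promoter in CEpiLC and SOX2-OFF and beside Adipor2 in naive ESC and SOX2-ON.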

How the results depend on the processing

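Of 190 alternative values of the counts, 156 stayed within 1.5 times and 34 moved. No gene passed an adjusted p of 0.05 under any alternative that was run. With a replicate block, TCF7L1 at Wnt3a kept its difference of 1.26 (exact permutation p = 0.03125, adjusted p = 0.553), and no call after adjustment changed. Loci with CEpiLC ahead of naive ESC numbered 3 for β-catenin with lists of equal length, 2 for LEF1 and 1 for TCF7L1 by fold, and 5 for TCF7L1 without the doubted lists, which are the 5 of under 5000 peaks and naive ESC LEF1 replicate 1, left out after seeing the data. Differential sites between SOX2-ON and SOX2-OFF numbered 0 for LEF1 and 0 for TCF7L1 with 10 kb flanks. With all deposited peaks they numbered 4 for LEF1, 3 for SOX2, 2 for TCF7L2 and 0 for β-catenin and TCF7L1. Ranked by p-value they numbered 2 for SOX2, 2 for LEF1 and 1 for TCF7L1, and with lists of equal length 1 for TCF7L1. For β-catenin they numbered 2 with summits joined within 100 bp, 0 within 500 bp and 7 without the doubted lists. Between CEpiLC and naive ESC, TCF7L2 sites numbered 2 with all deposited peaks and LEF1 sites 11 without the doubted lists. Leaving those lists out loosens the rule for the targets they belong to.

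Leaving out each replicate number loosens the rule to 2 of 2 libraries against 0 of 2 by construction. Loci with CEpiLC ahead then ranged from 4 to 5 for SOX2 and from 2 to 5 for TCF7L1, both highest without replicate 1. CEpiLC against naive ESC sites ranged from 6 to 12 for SOX2, highest without replicate 2, from 8 to 11 for β-catenin, from 6 to 11 for LEF1 and from 8 to 10 for TCF7L1. SOX2-ON against SOX2-OFF sites ranged from 6 to 12 for SOX2 and from 1 to 9 for β-catenin, both highest without replicate 2, from 1 to 3 for LEF1 and from 0 to 2 for TCF7L2.

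In 17 cases the high-minus-low difference of a locus changed sign, and the cause was not tested. For TCF7L2 at Wnt5a it was -0.38 with all peaks, -0.0055 with lists of equal length and -0.0955 to 0.17 when a replicate was left out, negative without replicates 2 and 3. For β-catenin it was 0.0561 at Wnt5b by p-value, -0.15 to 0.0071 there with a replicate left out, positive without replicate 3, and -0.0522 at Wnt8a with 10 kb flanks. For LEF1 at Wnt5b it was 0.0856 by p-value, 0.18 with 10 kb flanks and -0.0155 to 0.016 with a replicate left out, positive without replicate 1. For TCF7L1 at Wnt11 it was -0.0723 to 0.30 with a replicate left out, negative without replicate 2. By log2 fold it was -0.15 for SOX2 at Wnt3, -0.15 for TCF7L2 at Wnt8a, and for TCF7L1 -0.91 at Wnt3, -0.63 at Wnt8a, 0.51 at Wnt5a and -0.16 at Wnt11.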
